A study of Mus musculus with 7 samples.

Results

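The 2 Ago2-knockout lines of this study, C4 and 5-3, were compared with each other in 5 of the 7 deposited libraries, and the genes described first are those that differed between the lines in the same direction before and after differentiation. Line C4 has 2 libraries (1 of embryonic stem cells, 1 of differentiated cells) and line 5-3 has 3 (2 of stem cells, 1 of differentiated cells). Both lines are E14 mouse embryonic stem cells of 129/Ola background with the genotype Ago2 knockout, kept in serum with the self-renewal factor LIF on gelatine (ESC). Their differentiated counterparts (XEN, for extra-embryonic endoderm) were grown for 5 days in serum with activin A at 10 ng/mL and all-trans retinoic acid at 0.1 µM, without mention of LIF. The other 2 libraries, A and B, are wild-type E14 cells treated in the same way (WT XEN), and they served only as a reference level. Wild-type ES cells were not used here. The labels name 2 lines and do not say whether each is a single clone or how the allele was made. They also do not say whether the libraries came from separate cultures, so p-values measure only the spread of these libraries around the fit. C4 has 1 library per state and adds no spread between replicates.

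Library totals ranged from 33389566 to 48650113 counts, except C4 XEN, which had 13941826 and is the least precise library. The ES cell markers Pou5f1, Nanog, Sox2, Esrrb, Zfp42 and Klf4 summed to 3070, 3363 and 3378 CPM (read counts relative to the size of the library) in C4 ESC and the 2 5-3 ESC libraries. The 6 markers of XEN cells and primitive endoderm (Gata4, Gata6, Sox17, Sox7, Pdgfra, Dab2) summed to 431 CPM in C4 XEN and 638 CPM in 5-3 XEN, against 3221 and 4246 CPM in WT XEN. In ES cells these 6 summed to 5.13 CPM in C4 and to 29.9 and 31.4 CPM in 5-3. The 6 fibroblast or feeder markers, led by Col1a1 and Col3a1, summed to 2557 CPM in C4 XEN and 4100 CPM in 5-3 XEN, against 727 and 320 CPM in WT XEN. Not all went this way. Col1a2 was lower, at 28.4 CPM in C4 XEN and 36.0 CPM in 5-3 XEN against 212.9 and 57.9 CPM in WT XEN. Thy1 was at 4.85 CPM in C4 XEN and 0.830 CPM in 5-3 XEN, against 4.18 and 2.24 CPM. The label XEN therefore stands here for the treatment. In the knockout libraries that carry it, the summed markers of that cell type were above their ES cell level but well below WT XEN. Blood and endothelial markers summed to 1.74 and 1.60 CPM in the knockout XEN libraries, where Ptprc was at 0 in both.

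Argonaute proteins carry microRNAs to their target messenger RNAs, and AGO2 is the mammalian member of the family that can also cut a target. Imprinted genes, which supply several of the genes below, are expressed from the copy inherited from one parent only, under DNA methylation marks set in the germ line. Sublines of ES cells are known to drift at imprinted genes and in chromosome content during culture.

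Ago2 itself separated the lines in every library. Its level was 94.3 CPM in C4 ESC against 9.39 and 9.61 CPM in 5-3 ESC, and 121 CPM in C4 XEN against 9.93 CPM in 5-3 XEN. Both C4 libraries lay above all 3 libraries of 5-3. The 2 knockout XEN libraries lay below the 394.7 and 432.3 CPM of WT XEN. So did the ES cell libraries, for which there was no wild-type counterpart. The line difference, fitted with the state as a block, was 3.40 ± 0.13 on the log2 scale (SE; edgeR quasi-likelihood test, adjusted p = 0.00488), and it was 3.31 in ES cells and 3.51 in XEN cells. The deposited table holds 1 count per gene, so which part of the Ago2 transcript the remaining reads cover, and whether any protein is made, cannot be said. Ago2 lies at chr15:73095844-73184935 on the minus strand of mm10 and overlaps the end of Chrac1 on the other strand. Chrac1, a subunit of a chromatin remodelling complex, differed by -0.25 ± 0.16, and neither edgeR nor DESeq2 called any of the 12 genes tested within 1 Mb of Ago2, Chrac1 included (1 at an unadjusted edgeR p below 0.05; DESeq2 gave no adjusted p for Mroh5).

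None of the other Argonaute genes was called by edgeR or DESeq2. Ago1 was at 201.6 CPM in C4 ESC against 124.5 and 134.2 CPM in 5-3 ESC, but at 83.1 CPM in C4 XEN against 96.2 CPM in 5-3 XEN. Ago3 was at 47.4 against 29.4 and 37.4 CPM in ES cells and at 14.6 against 11.1 CPM in XEN cells. Ago4 stayed below 1 CPM in all 3 ES cell libraries and was at 3.84 CPM in C4 XEN and 3.54 CPM in 5-3 XEN. The fitted line differences of these 3 genes were 0.26, 0.43 and 0.25 (log2), with adjusted p of 0.652, 0.393 and 0.814 (edgeR).

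**Figure D1:**
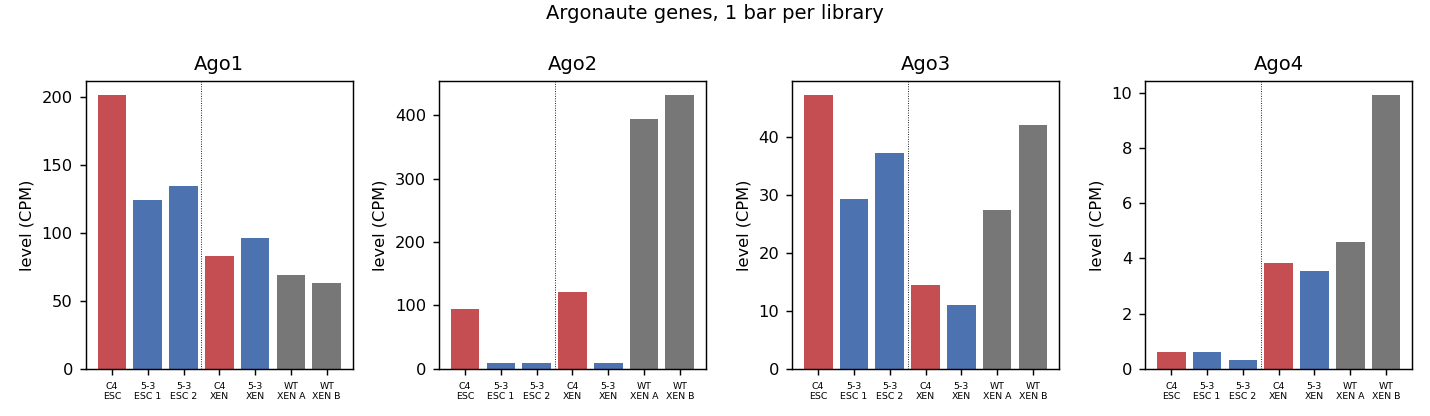
Level of the 4 Argonaute genes in CPM (y axis, linear from 0, a separate scale in each panel), 1 bar per library, with line C4 in red, line 5-3 in blue and wild type in grey. Ago2 is the panel in which both C4 bars (94.3 and 121 CPM) stand above all 5-3 bars (9.39 to 9.93 CPM) and below both wild-type bars. The wild-type bars are XEN cells, with no wild-type ES cells shown.

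Across the genome, few differences passed the test once both states had to fit a single line effect. Of 18986 genes tested, 9 were called (0.0474%), 8 of them higher in C4 (0.0421%) and 1 lower (0.00527%), and all 9 had C4 outside every 5-3 library in the same direction in both states. The 8 are Ago2, the imprinted genes Plagl1, H19 and Nnat, the X-linked genes Usp26, Xlr3b and Xlr3c, and Rasgrp1, and the gene lower in C4 is Cubn. The fit had 2 residual degrees of freedom, from the 5-3 ESC pair and from the departure of the line difference from being equal in both states. A gene whose difference changes between the states is therefore less likely to be called, so the shared direction of the 9 is partly set by the test. At an unadjusted p below 0.05, 1027 genes were higher (5.41%) and 1297 lower in C4 (6.83%). DESeq2, which takes its spread from a different model, called 440 genes (2.32%), 269 higher (1.42%) and 171 lower (0.901%), among them all 9. Of the 440, 419 had C4 outside every 5-3 library in the same direction in both states. Without C4 ESC the test called 806 genes, without C4 XEN 3599 and without 5-3 XEN 3553, and each of these fits compares the lines within 1 state with a spread taken from the 5-3 ESC pair alone.

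Across the 18986 genes the C4 minus 5-3 difference in ES cells had a Pearson correlation of 0.0807 and a Spearman correlation of 0.0289 with that in XEN cells. The standard deviation of the difference was 0.74 in ES cells and 0.77 in XEN cells, against 0.52 between the 2 5-3 ESC libraries (log2). The XEN difference rests on 1 library per line. The part of noise between libraries in the low correlation was not tested. Of the 389 genes that differed by at least 2 log2 units in ES cells, 197 had the same sign in XEN cells (50.6%), as had 5782 of the 11927 genes that differed by less than 0.5 (48.5%). The 2 directions differed among the small differences, where the sign was the same for 2015 of 5754 genes higher in C4 ESC (35.0%) and for 3767 of 6036 lower (62.4%). Among the differences of at least 2 it was the same for 118 of 234 higher (50.4%) and 79 of 155 lower (51.0%). C4 lay above every 5-3 library of its state in both states for 2972 genes (15.7%) and below for 4801 (25.3%), which is the background for the counts that follow. The median difference over all genes was 0 in ES cells and -0.09 in XEN cells. Genes at least 2-fold apart in the same direction in both states numbered 232 higher (1.22%) and 202 lower in C4 (1.06%).

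**Figure D2:**
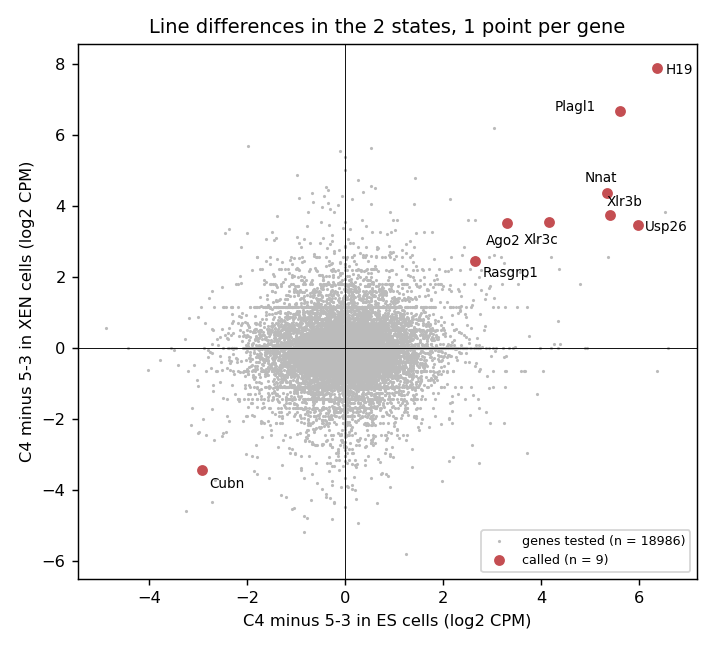
Difference between the lines in log2 CPM (2 counts added before the logarithm) in ES cells (x axis) and in XEN cells (y axis), 1 point per gene, with the 9 called genes in red. The grey cloud of 18986 genes has no visible slope (Pearson 0.0807). The called genes lie far out on the diagonal, 8 at the upper right and Cubn at the lower left. That place is largely set by the test, which fits a single line effect to both states.

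Among the called genes, the 2 largest line differences were those of the imprinted genes H19 and Plagl1. Plagl1, a zinc finger transcription factor that restrains cell growth, lies at chr10:13060504-13131694 on the plus strand. It was at 7.36 CPM in C4 ESC against 0.0963 and 0.0997 CPM in 5-3 ESC, and at 90.2 CPM in C4 XEN against 0.768 CPM in 5-3 XEN. The 5-3 ESC values rest on 4 and 5 reads. WT XEN had 0.989 and 0.885 CPM, so that the 5-3 XEN library was near the wild-type level and C4 XEN far above it. The fitted difference was 6.55 ± 0.23 (log2, SE; edgeR adjusted p = 0.00488).

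H19, a non-coding RNA expressed from the maternal copy, lies at chr7:142575529-142578143 on the minus strand. Its level was 27.8 CPM in C4 ESC against 0.289 and 0.279 CPM in 5-3 ESC, and 3580 CPM in C4 XEN against 14.3 CPM in 5-3 XEN. The wild-type libraries lay between the lines with 122 and 36.2 CPM. The difference was 7.42 ± 0.32 (log2, SE; edgeR adjusted p = 0.00575). Nnat, which encodes a small membrane proteolipid and is expressed from the paternal copy, lies at chr2:157560078-157562522 inside Blcap, which is on the other strand. Nnat was at 6.60 CPM in C4 ESC against 0.0722 and 0.160 CPM in 5-3 ESC, and at 147.5 CPM in C4 XEN against 6.61 CPM in 5-3 XEN, with 0.879 and 0.111 CPM in WT XEN. Its 5-3 ESC values rest on 3 and 8 reads. The difference was 4.86 ± 0.34 (log2, SE; edgeR adjusted p = 0.0366), and it had an adjusted p of 0.0655 when WT XEN was added to the fit. Blcap differed by only -0.06 between the lines.

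The starts of the paternally expressed genes Plagl1 and Nnat are printed here because both lie in regions whose CpG sites are methylated on the maternal copy, and CpG is the unit of that mark. The 250 bases before the start are given 5′ to 3′ on the gene's strand from RefSeq (GRCm38.p6), with every CG in capitals. The Plagl1 window is chr10:13090582-13090831 and the Nnat window is chr2:157559828-157560077, both on the plus strand. Plagl1 has more than 1 annotated start: the window lies before the start that RefSeq gives, inside the gene span above, and ends 30.3 kb after the beginning of that span.
Plagl1: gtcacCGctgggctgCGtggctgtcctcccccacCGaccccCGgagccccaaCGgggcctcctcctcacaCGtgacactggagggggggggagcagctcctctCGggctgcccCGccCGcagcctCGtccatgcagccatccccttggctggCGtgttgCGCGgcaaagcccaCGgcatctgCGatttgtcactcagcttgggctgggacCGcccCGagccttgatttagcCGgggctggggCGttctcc
Nnat: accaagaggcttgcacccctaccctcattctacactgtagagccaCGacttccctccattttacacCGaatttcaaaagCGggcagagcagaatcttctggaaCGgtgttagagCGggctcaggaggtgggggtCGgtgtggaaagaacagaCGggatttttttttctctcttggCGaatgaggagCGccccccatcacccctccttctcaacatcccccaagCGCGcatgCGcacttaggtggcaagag
The motif CG, which reads the same on both strands, occurs 19 times in the Plagl1 window and 12 times in the Nnat window. Of the 32851 promoter windows of this length in the table, 19.7% hold at least as many as Plagl1 and 33.5% at least as many as Nnat, and the median is 6. DNA methylation was not measured in these libraries.

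H19 is also the precursor of a microRNA, miR-675, whose 2 mature arms are cut from its first exon. They are shown because they are the small RNA product of the called gene with the largest line difference, with the seed (bases 2 to 8, which pair with targets) in capitals.
mmu-miR-675-5p: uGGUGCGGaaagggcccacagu
mmu-miR-675-3p: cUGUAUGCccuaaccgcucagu
The arms lie at chr7:142577112-142577133 and chr7:142577078-142577099 on the minus strand (RefSeq, GRCm38.p6) and do not share a seed. These libraries of polyadenylated RNA do not measure mature microRNAs.

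Among the other imprinted genes, differences ran in both directions and none was called by edgeR. Of 37 imprinted genes tested, edgeR called 3 higher in C4 and 0 lower, with 17 at an unadjusted p below 0.05. DESeq2 called 4 higher, Impact being the addition, and 1 lower, Cdkn1c (DESeq2 adjusted p = 0.000545). C4 was above every 5-3 library in both states for 15 of them and below for 7, and the median difference was 0.21 against -0.05 over all genes. Impact, a regulator of translation under amino acid shortage, was at 240 CPM in C4 ESC against 107 and 112 CPM in 5-3 ESC, and at 116 against 60.7 CPM in XEN cells. Cdkn1c, a cyclin-dependent kinase inhibitor, had the opposite order, with 19.2 CPM against 44.4 and 50.6 CPM in ES cells and 112 against 176 CPM in XEN cells. Igf2, the fetal growth factor gene next to H19 and expressed from the paternal copy, was at 5.66 CPM in C4 ESC against 5.18 and 4.67 CPM in 5-3 ESC. In XEN cells it was at 1265 CPM in C4 and 3015 CPM in 5-3, with 1067 and 566 CPM in wild type. Grb10, an adaptor that damps growth factor receptor signalling, was at 308 against 407 and 438 CPM in ES cells and at 470 against 1262 CPM in XEN cells.

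**Figure D3:**
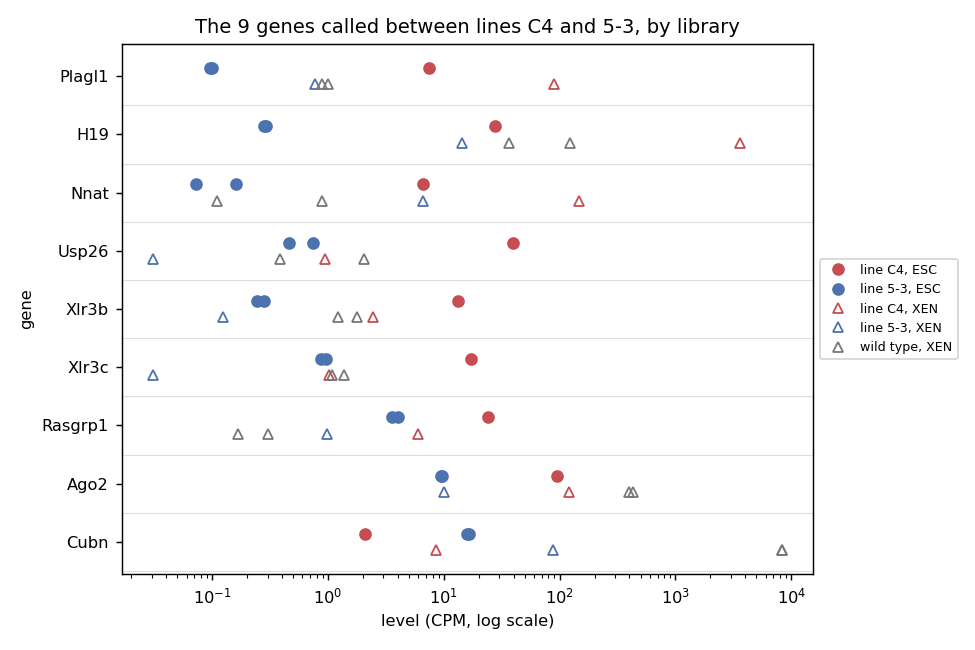
Level of the 9 called genes in CPM (x axis, log scale), 1 symbol per library, with filled circles for ES cells, open triangles for XEN cells, and C4 in red, 5-3 in blue and wild type in grey. In each row the red symbols lie to the right of the blue symbols of the same shape, except for Cubn, where they lie to the left.

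The X-linked genes among the calls belong to germ cell families. Usp26, a deubiquitinating enzyme of the testis, lies at chrX:51753959-51801233. It was at 39.7 CPM in C4 ESC against 0.457 and 0.738 CPM in 5-3 ESC. In XEN cells it was barely detected, with 13 reads in C4 and 1 read in 5-3, a ratio of CPM values of 30.6 (exact 95% interval 4.6 to 1300, counting error only). The fitted difference was 5.96 ± 0.34 (log2, SE; edgeR adjusted p = 0.0198). The adjusted p of Usp26 was 0.0589 without C4 ESC and 0.0655 with WT XEN in the fit, so its call depends on those libraries.

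Xlr3b and Xlr3c are members of the Xlr family of chromatin-associated proteins of lymphoid and germ cells, in a cluster of near-identical copies, of which Xlr3b, Xlr4b and Xlr4c are known to be imprinted in mouse brain. Xlr3b (chrX:73192207-73202930) was at 13.2 CPM in C4 ESC against 0.241 and 0.279 CPM in 5-3 ESC, and at 2.46 against 0.123 CPM in XEN cells (edgeR log2 difference 5.28, adjusted p = 0.0432). Its 5-3 XEN value rests on 4 reads. Xlr3c (chrX:73254540-73265390) was at 17.1 CPM against 0.867 and 0.957 CPM in ES cells, and had 14 reads in C4 XEN and 1 in 5-3 XEN, a ratio of CPM values of 33.0 (exact 95% interval 5.01 to 1390). Its fitted difference was 4.30 with an edgeR adjusted p of 0.0329. Of the Xlr3, Xlr4 and Xlr5 genes, 9 were tested, 2 were called and 7 had C4 above every 5-3 library in both states.

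How alike the copies are can be seen in the 250 bases before their starts, printed to show that likeness. These bases lie outside the gene spans given above, so they do not bear on read assignment. The longest run that Xlr3b and Xlr3c share, 119 bases, is in capitals (RefSeq, GRCm38.p6, chrX:73191929-73192178 plus strand and chrX:73265391-73265640 minus strand).
Xlr3b: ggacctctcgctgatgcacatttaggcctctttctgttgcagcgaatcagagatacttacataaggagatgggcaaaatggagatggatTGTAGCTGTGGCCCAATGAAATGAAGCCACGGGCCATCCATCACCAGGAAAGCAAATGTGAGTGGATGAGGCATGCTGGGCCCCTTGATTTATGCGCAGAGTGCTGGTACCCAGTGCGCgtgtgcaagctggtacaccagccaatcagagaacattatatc
Xlr3c: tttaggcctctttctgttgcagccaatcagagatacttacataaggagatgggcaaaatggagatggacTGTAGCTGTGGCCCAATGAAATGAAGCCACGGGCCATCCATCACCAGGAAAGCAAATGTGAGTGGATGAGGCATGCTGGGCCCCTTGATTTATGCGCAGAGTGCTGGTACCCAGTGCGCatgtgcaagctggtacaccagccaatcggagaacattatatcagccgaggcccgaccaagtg
Within the annotated transcripts, 56.5% of the 50-base stretches of Xlr3b and 72.1% of those of Xlr3c also occur in transcripts of other genes, against 0% for Plagl1, Nnat, Usp26, Rasgrp1 and Cubn, 1.33% for H19 and 2.22% for Ago2. The Xlr values are therefore uncertain as to the copy, since the counting could split or drop such reads.

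Other X-linked genes with large differences in both states stayed short of the threshold. Xlr3a had 825 reads in C4 ESC against 6 and 9 in 5-3 ESC, and 30 in C4 XEN against 3 in 5-3 XEN (edgeR adjusted p = 0.0501). Pnma5, a gene of a family derived from retrotransposons, was at 57.8 CPM in C4 ESC against 4.43 and 4.47 CPM, and at 1.67 against 0.338 CPM in XEN cells (edgeR adjusted p = 0.0732). Nxf3, an RNA export factor of the testis, was at 11.5 CPM against 0.602 and 0.897 CPM in ES cells, with 13 reads against 2 in XEN cells (edgeR adjusted p = 0.0609). Efhc2, an EF-hand protein of cilia, was at 12.5 CPM in C4 ESC against 1.04 and 0.997 CPM in 5-3 ESC, and at 2.10 against 0.400 CPM in XEN cells. Over the whole X chromosome, 785 genes tested, the median difference was -0.01.

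Genes of the 2-cell-like state, a rare state of ES cells that switches on genes of the early embryo, had a median difference of 2.34 over 17 tested genes, with C4 above in both states for 11 and below for 0. None was called by edgeR (11 at an unadjusted p below 0.05), DESeq2 called 5 higher, and most had few reads. Zscan4d, a telomere-associated member, was at 7.96 CPM in C4 ESC against 1.08 and 0.798 CPM in 5-3 ESC, and at 0.507 against 0.0307 CPM in XEN cells (edgeR adjusted p = 0.105). The Zscan4 and Usp17l members of the list are close copies of one another, so that they are not separate measurements. Of 30 methylation-silenced germline genes tested, C4 was above in both states for 7 and below for 7. Among these, edgeR called 0 (12 at an unadjusted p below 0.05) and DESeq2 called Xlr3a and Xlr4a higher. Of 7 tested Y-linked genes, 4 had C4 above in both states and 0 below, with medians of 1.06 in ES cells and 0.004 in XEN cells. Of these, edgeR called 0 (4 at an unadjusted p below 0.05), and DESeq2 called Kdm5d, Uba1y and Zfy1 higher. Ddx3y was at 173 CPM in C4 ESC against 133 and 159 CPM, and at 20.8 against 19.5 CPM in XEN cells, so that both lines transcribed the Y chromosome.

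Rasgrp1, which activates RAS in response to diacylglycerol, lies at chr2:117279993-117343001. It was at 23.8 CPM in C4 ESC against 3.56 and 3.99 CPM in 5-3 ESC, and at 6.01 CPM in C4 XEN against 0.984 CPM in 5-3 XEN, with 0.302 and 0.166 CPM in wild type. Both C4 libraries were above all 3 libraries of 5-3. The difference was 2.61 ± 0.20 (log2, SE; edgeR adjusted p = 0.0432), and the adjusted p was 0.0631 and 0.0562 when 1 or the other 5-3 ESC library was left out. Among genes with at least 2 CPM in the higher line in both states, the 6 that follow by size without an edgeR call were Xlr3a, Nefm, Efhc2, Fbln2, Sorbs2 and Rtkn2, and DESeq2 called all 6. Fbln2, an extracellular matrix protein, was at 4.797 CPM in C4 ESC against 1.47 and 1.42 CPM, and at 208 against 42.1 CPM in XEN cells (edgeR adjusted p = 0.0609). Nefm, a neurofilament subunit, was at 6.38 CPM against 0.698 and 0.618 CPM in ES cells and at 2.61 against 0.369 CPM in XEN cells. Rtkn2 was at 20.2 CPM against 5.99 and 7.10 CPM in ES cells and at 2.97 against 0.984 CPM in XEN cells, and it lies in the stretch of chromosome 10 described next.

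Along the chromosomes, C4 stood apart from 5-3 in a stretch of chromosome 10. Tested genes were grouped into 744 windows of 25 neighbours, and 5 windows had a median of at least 0.5 log2 units in the same direction in both states. Of these, 4 are consecutive on chromosome 10 (chr10:52690533-70285968, from Slc35f1 to Slc16a9) and 1 is on chromosome 15. The 100 genes of the chromosome 10 run had a median difference of 0.98 in ES cells and 0.75 in XEN cells, with the quartiles at 0.53 and 1.26 in ES cells and at 0.46 and 0.97 in XEN cells. C4 was above every 5-3 library in both states for 80 of them (15.7% over all genes) and below for 5. Of the 62 with a mean level of at least 5 CPM, 60 were above. Against WT XEN, the run had a median of 0.73 in C4 XEN and -0.06 in 5-3 XEN, so that 5-3 was the line closer to wild type there. The remaining 730 genes of chromosome 10 had medians of 0.04 and -0.10.

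Genes of unrelated function shared this difference, and edgeR called none of them singly. Ddx21, a nucleolar RNA helicase, was at 853 CPM in C4 ESC against 409 and 427 CPM in 5-3 ESC, and at 121 against 43.7 CPM in XEN cells. Eif4ebp2, an inhibitor of cap-dependent translation, was at 165 CPM against 62.2 and 60.3 CPM in ES cells and at 132 against 54.3 CPM in XEN cells. Cdk1, the mitotic kinase, was at 198 CPM against 139 and 129 CPM in ES cells and at 90.1 against 47.6 CPM in XEN cells. Tet1, which oxidises methylcytosine, was at 1510 CPM in C4 ESC against 424 and 545 CPM in 5-3 ESC, and at 19.5 against 11.4 CPM in XEN cells. With edges set after the values were seen, at Ascc3 (1.61 and 0.49 in the 2 states) and Zwint (0.95 and 0.96), the stretch held 115 tested genes at chr10:50592669-72674964, of which 92 were above in both states. Beyond Zwint, Gm6419 had -0.24 and -0.15, and Bcr 0.03 and -0.21, but some further genes, such as Dip2a (0.73 and 0.77), were higher in C4 in both states. Beyond Ascc3, Hace1 had 0.19 and 0.05, but the further genes Lin28b (0.44 and 0.72) and Prdm1 (2.47 and 0.88) were higher in C4 in both states. Of the 252 genes that DESeq2 called higher in C4 in both states, 65 lie in this stretch, which holds 115 of the 18986 genes tested. For orientation, 3 copies against 2 would give 0.585 and 2 against 1 would give 1.00 on the log2 scale if RNA followed DNA. DNA copy number was not measured, and its part in the result was not tested.

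Chromosome 15, which carries Ago2, had the opposite sign. Its 728 tested genes had a median difference of -0.55 in ES cells and -0.25 in XEN cells, while the medians of the other autosomes and X ran from -0.06 to 0.10 in ES cells and from -0.14 to 0.00 in XEN cells. C4 was below every 5-3 library in both states for 411 of the 728 (56.5%, against 25.3% of all genes). All 29 windows of the chromosome were below 0 in both states, from -0.87 to -0.09 in ES cells and from -0.51 to -0.01 in XEN cells. Of the 715 windows of the other chromosomes, 270 were below 0 in both states (37.8%). Set against the medians of all genes instead of 0, since the XEN median is -0.09, 27 of the 29 windows were below in both states, as were 166 of the 715 (23.2%). Against WT XEN, both lines had raised medians on this chromosome, 0.50 in C4 XEN and 0.63 in 5-3 XEN, so that the line lower here is C4 without being at the wild-type level. Ago2 was among the 29 genes of the chromosome with C4 above every 5-3 library in both states. Drosha, the nuclear nuclease that starts microRNA maturation, is also on chromosome 15 and was at 236 CPM in C4 ESC against 421 and 417 CPM in 5-3 ESC, and at 252 against 309 CPM in XEN cells (edgeR adjusted p = 0.238). Foxh1, the SMAD partner in nodal and activin signalling, was at 19.3 CPM against 45.3 and 44.1 CPM in ES cells and at 1.45 against 3.87 CPM in XEN cells. DESeq2 called 167 genes lower in C4 in both states, and 32 of them are on chromosome 15, which holds 728 of the 18986 genes tested.

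**Figure D4:**
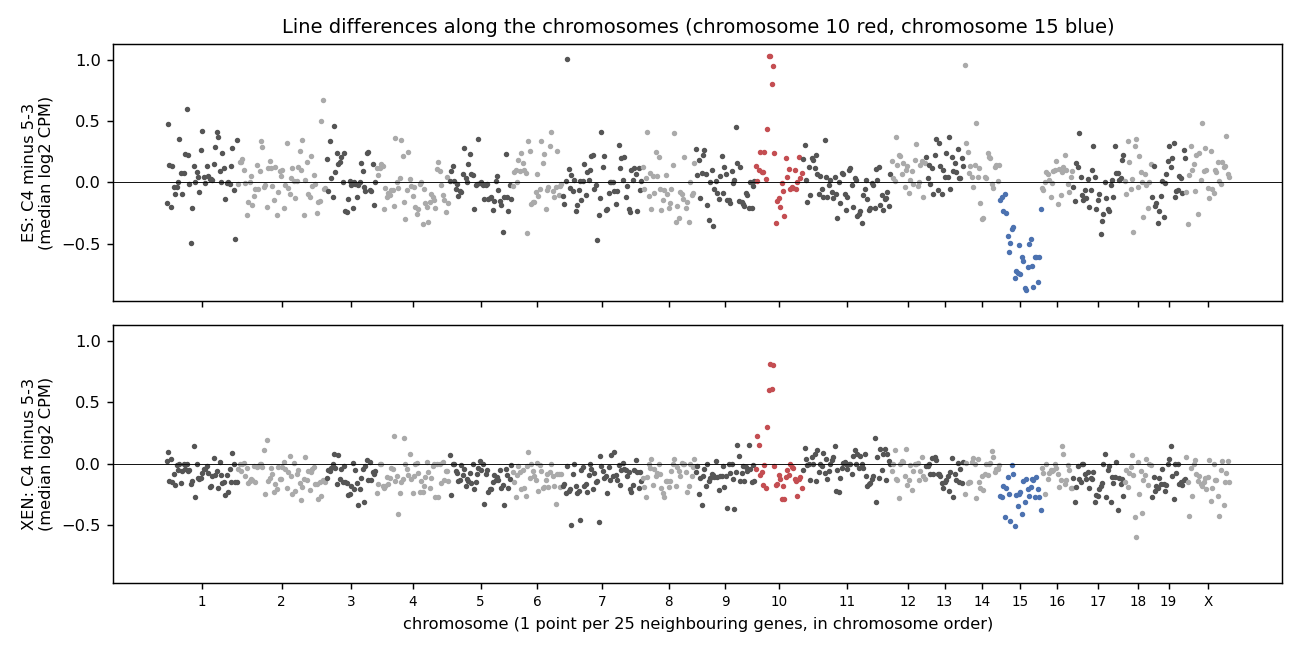
Median difference between the lines (log2 CPM, y axis) in windows of 25 neighbouring tested genes in chromosome order (x axis), in ES cells above and XEN cells below, with chromosome 10 in red and chromosome 15 in blue. The run on chromosome 10 stands up in both panels (medians over its 100 genes 0.98 and 0.75), and all 29 chromosome 15 windows lie below 0 in both, as do 270 of the 715 other windows.

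Cubn was the gene lower in C4 that passed the test. It encodes cubilin, the endocytic receptor with which yolk sac endoderm takes up proteins and lipoproteins, and lies at chr2:13276338-13491813. It was at 2.06 CPM in C4 ESC against 15.7 and 16.4 CPM in 5-3 ESC, and at 8.61 CPM in C4 XEN against 88.4 CPM in 5-3 XEN. Both knockout XEN libraries were far below the 8252 and 8328 CPM of WT XEN. For the ES cell libraries there was no wild-type counterpart. The difference was -3.18 ± 0.19 (log2, SE; edgeR adjusted p = 0.0230). Amn, which encodes the membrane partner of cubilin, had 0.0720 CPM in C4 ESC against 0.698 and 0.638 CPM, and 0.290 against 1.66 CPM in XEN cells (edgeR adjusted p = 0.162). Lrp2, the partner receptor megalin, was at 159 against 185 and 199 CPM in ES cells and at 43.1 against 52.1 CPM in XEN cells.

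Other primitive endoderm genes lay below 5-3 as well. Of 20 tested, edgeR called Cubn and DESeq2 called 8, all lower in C4, among them Gata4 (adjusted p = 0.00138), Gata6 (0.00621) and Pdgfra (0.0307). C4 was below every 5-3 library in both states for 16 and above for 0, and the median difference was -1.28, against -0.05 over all genes. The difference was larger in ES cells (median -1.72) than in XEN cells (-0.76). Gata4 was at 0.768 CPM in C4 ESC against 6.45 and 4.33 CPM in 5-3 ESC, and at 43.3 against 82.9 CPM in XEN cells. Gata6, with Gata4 a master regulator of this lineage, was at 0.240 CPM against 1.88 and 2.97 CPM in ES cells and at 96.3 against 169 CPM in XEN cells. Dab2, an endocytic adaptor, was at 1.66 CPM against 14.1 and 15.1 CPM in ES cells and at 256 against 336 CPM in XEN cells. Sparc and Lamc1, of the basement membrane, differed by -0.13 and 0.21. In these bulk libraries fewer cells of a type and less RNA per cell cannot be told apart.

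Beside this, the 6 fibroblast or feeder markers summed to 14.1 CPM in C4 ESC against 24.2 and 22.7 CPM in 5-3 ESC. Thy1 made that difference, with 8.78 against 19.1 and 18.6 CPM, and the other 5 summed to 5.28 against 5.08 and 4.11 CPM, with Col3a1 and Postn at 0 in all 3 ES cell libraries. In XEN cells Thy1 was at 4.85 CPM in C4 against 0.830 CPM in 5-3, and the other 5 summed to 2551 against 4098 CPM. The part of these markers in the endoderm result was not tested. In the visceral endoderm list, 23 genes tested, C4 was below in both states for 5 and above for 4. The median difference of this list was 0 in ES cells and -1.10 in XEN cells. Of its genes edgeR called Cubn (9 at an unadjusted p below 0.05), and DESeq2 called Amn and Cubn lower and Cldn6 higher. Ttr, a carrier of thyroid hormone and retinol-binding protein, was at 0.0241 CPM or less in all 3 ES cell libraries, and at 0.796 CPM in C4 XEN against 11.8 CPM in 5-3 XEN.

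**Figure D5:**
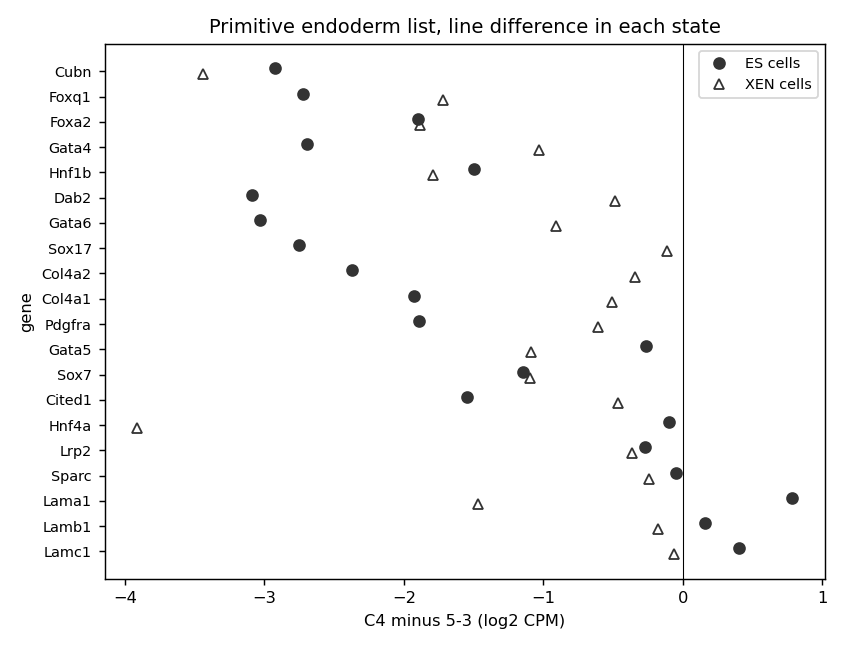
Difference between the lines (log2 CPM, x axis) for the 20 genes of the primitive endoderm list (y axis, ordered by the fitted difference), with filled circles for ES cells and open triangles for XEN cells. C4 lies below every 5-3 library in both states for 16 genes, with Cubn the only member called by edgeR (DESeq2 called 8), and Lama1, Lamb1 and Lamc1 differ in sign between the states.

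Among genes with at least 2 CPM in the higher line in both states, the 11 lower in C4 with the largest difference after Cubn had edgeR adjusted p from 0.0652 to 0.288, and DESeq2 called all 11. Apobec2, a member of the deaminase family, was at 2.26 CPM in C4 ESC against 13.0 and 13.3 CPM in 5-3 ESC, and at 1.16 against 6.24 CPM in XEN cells. Slco2a1, a prostaglandin transporter, was at 0.456 CPM against 3.996 and 3.57 CPM in ES cells and at 47.5 against 177 CPM in XEN cells, with 567 and 403 CPM in wild type. Srgn, a proteoglycan core protein, was at 0.504 CPM against 1.73 and 2.29 CPM in ES cells and at 1.74 against 18.3 CPM in XEN cells. It lies within the chromosome 10 stretch and goes against its neighbours. Atp1b2, a subunit of the sodium pump, was at 10.7 CPM against 28.0 and 28.4 CPM in ES cells and at 13.1 against 31.1 CPM in XEN cells. The others of the 11 are Arl4d, Dram1, Dock10, Cyp11a1, Fjx1, Plet1 and Foxh1.

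The microRNA machinery, 20 genes tested, had a median of 0.06, and Ago2 was its called member by edgeR and by DESeq2. In the lists that follow edgeR called no gene, and the counts in parentheses are those at an unadjusted edgeR p below 0.05. Lin28b, which blocks let-7 maturation, was at 61.2 CPM in C4 ESC against 42.6 and 48.5 CPM, and at 24.0 against 13.7 CPM in XEN cells. Lists of ES cell microRNA targets and let-7 targets had medians of -0.06 and 0.07 (3 and 4 genes), and DESeq2 called Hmga2, a let-7 target, lower. Of 25 DNA replication genes, C4 was below in both states for 18 and above for 0, with a median of -0.26 (7 genes) and 0 calls by DESeq2. Mcm5, a subunit of the replicative helicase, was at 421 CPM against 580 and 568 CPM in ES cells and at 80.3 against 98.4 CPM in XEN cells. Of 29 interferon response genes, C4 was below in both states for 13 and above for 0, with medians of 0.14 in ES cells and -0.64 in XEN cells (8 genes) and 0 calls by DESeq2. Naive pluripotency genes (30 tested) had a median of -0.06 (5 genes), with 2 called higher, Tet1 among them, and 2 lower by DESeq2. The p53 targets, 26 tested, had 0.06 (4 genes), with Ddit4 called higher by DESeq2. Both Tet1 and Ddit4 lie in the chromosome 10 stretch described above.

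Some genes had opposite orders in the 2 states. The interaction of line and state was called by edgeR for 1621 genes (8.54%), of which 1342 had opposite signs in ES and XEN cells. That fit has 1 residual degree of freedom, which comes from the 5-3 ESC pair. DESeq2 called 750, and edgeR called 0 when counts were thinned to the depth of C4 XEN and 0 when WT XEN was added. The 6 genes named here by the smallest interaction p were Pga5, Nrp2, Acta2, Adamts9, Serpinb6c and Lefty2, and all were higher in C4 in ES cells and lower in XEN cells. Nrp2, a co-receptor for semaphorins and VEGF, was at 101.5 CPM in C4 ESC against 34.9 and 34.1 CPM in 5-3 ESC, but at 55.9 CPM in C4 XEN against 208 CPM in 5-3 XEN. Lefty2, a secreted nodal inhibitor, was at 116 CPM against 25.2 and 28.5 CPM in ES cells and at 3.69 against 14.02 CPM in XEN cells. Acta2, smooth muscle actin, was at 13.3 CPM against 1.59 and 1.72 CPM in ES cells, whereas in XEN cells it was at 4078 and 4468 CPM. Adamts9, a secreted metalloproteinase, was at 36.8 CPM against 12.8 and 14.2 CPM in ES cells and at 44.0 against 162 CPM in XEN cells. Serpinb6c, a protease inhibitor, was at 35.5 CPM against 5.22 and 5.404 CPM in ES cells and at 0.362 against 3.63 CPM in XEN cells. Pga5, a pepsinogen, was at 3.86 CPM against 1.64 and 1.58 CPM in ES cells and at 1.30 against 71.6 CPM in XEN cells.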

How the data were processed

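Polyadenylated RNA was sequenced from 7 libraries by a reverse-stranded protocol, per the labels. The genome build mm10, STAR 2.4.2a (an aligner) and featureCounts 1.4.5-p1 (a read counter) are named per the submitters' processing notes. Deposited were whole-number counts for 43629 Ensembl genes, which the authors had not normalized. The strand setting of the counting and the annotation release are not given in the sources used here, so overlapping antisense genes and close paralogs are uncertain. Symbols and positions come from GENCODE M21 (GRCm38, the assembly of mm10), which matched 42548 IDs. The 1081 unmatched IDs held 0.136% of counts and were kept.

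The 5 knockout libraries entered an edgeR 4.0.16 quasi-likelihood fit (R 4.3.3) of state plus line, after TMM scaling. The filterByExpr filter on line-by-state groups kept 18986 genes for testing and removed 24643. A gene was called where its p, adjusted by Benjamini-Hochberg over all tested genes, was below 0.05. DESeq2 1.42.0 was an alternative and gave no adjusted p for 2209 genes. CPM values use TMM-scaled sizes of all 7 libraries, and differences within a state are in log2 CPM with a prior count of 2. Values against WT XEN add 0.1 CPM. The 5-3 ESC pair differed beyond sampling noise (chi-square of 21.1 per degree of freedom) and was kept as 2 libraries. For Usp26 and Xlr3c, with 1 read each in 5-3 XEN, an exact 95% interval of the XEN ratio is given, for counting error only. Other differences that rest on few reads, such as those of Plagl1, Nnat, Xlr3b, Xlr3a, Nxf3, Amn and Zscan4d, carry no interval.

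The lines, the 27 gene lists and the tests were chosen with earlier results of these data known. Named genes are the Argonautes, the 12 per direction with the largest smaller difference of the 2 states and at least 2 CPM in the higher line in both, without predicted genes (called genes first), called list members, the 6 interactions and genes within 1 Mb of Ago2. Usp26 and Xlr3c were called below that level, and other list and region members were chosen after their values were seen. The scripts were tested on simulated counts. Alternatives were another scaling, tool, filter or set of libraries, thinned counts, and leaving out each library.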

Additional observations from a re-analysis of the deposited data

Results flagged for a closer look

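The line difference itself differed between ES and XEN cells, by the edgeR interaction test, for 19 of the 99 genes examined for naming, against 1621 of all 18986 genes tested (8.54%). Of the 19, 6 were chosen by the smallest p of this test, so the count is partly fixed by the choice. Each value below is the difference in XEN cells minus that in ES cells (log2, C4 over 5-3). The test has 1 residual degree of freedom, from the 5-3 ESC pair, and it made 0 calls over all genes with thinned counts or with WT XEN added.

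The value is negative where C4 was higher relative to 5-3 in ES cells than in XEN cells. It was -7.14 for Pga5, -3.24 for Acta2, -3.43 for Adamts9, -4.13 for Lefty2, -3.55 for Nrp2 and -6.15 for Serpinb6c. It was -4.12 for Hnf4a, a transcription factor of visceral endoderm, and -2.91 for Plet1. Among imprinted genes it was -2.18 for Peg3, which was at 198 CPM in C4 ESC against 45.0 and 52.3 CPM in 5-3 ESC and at 2822 against 2929 CPM in XEN cells. It was -1.56 for Igf2 and -1.07 for Grb10. It was -1.12 for Ascc3 on chromosome 10, -0.95 for Ago1 and -1.02 for Dennd3.

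The value was positive for H19 (1.28), higher in C4 in both states, and for Ptp4a3 (1.41), near Ago2. It was positive for the primitive endoderm genes Dab2 (2.65), Gata6 (2.42) and Sox17 (3.58), which lay further below 5-3 in ES cells than in XEN cells.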

How the results depend on the processing

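No paired analysis by replicate number was possible because the labels number only the 5-3 ESC libraries, and the state was the block instead. Ago2 kept its direction and call under the 12 alternatives that keep the state block, between 3.32 and 3.52 (log2). Without that block no gene was called, Ago2 included.

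The number of genes called between the lines was 9. It was 440 with DESeq2, 374 with no filter on low counts, 14 with all 7 libraries and 0 without the state block. Leaving out 1 library gave 12 to 3599. The number called in the same direction in both states, also 9, was 419 with DESeq2, 340 with no filter and 14 with all 7 libraries, and 12 to 13 without either 5-3 ESC library. The interaction count, 1621, was 750 with DESeq2, 3728 with no filter, 0 with all 7 libraries and 0 with thinned counts. The cause of these changes was not tested.

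The chromosome 15 median of the line fit, -0.43, was -0.39 with DESeq2 size factors, -0.39 with DESeq2, -0.46 with no filter, -0.39 with at least 1 CPM in 2 libraries, -0.39 with all 7 libraries and -0.36 with thinned counts, and -0.59 to -0.25 with 1 library left out. The chromosome 10 run median, 0.93, was 0.97 with DESeq2, 0.98 with at least 1 CPM in 2 libraries and 0.74 to 0.99 with 1 library left out. With 1 library left out, the Ago1 difference ran from -0.31, without C4 ESC, to 0.65, without C4 XEN. The Nnat, Rasgrp1 and Usp26 calls were lost in the settings given with them. The shallow C4 XEN library limits genes with few reads: 3 counts there are 0.217 CPM.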

Other observations

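Genes of the parietal endoderm and basement membrane lay below 5-3 for 12 of 24 tested and above for 1, in both states, with a median of -0.38. In that list edgeR called 0 (6 at an unadjusted p below 0.05), and DESeq2 called Pth1r (adjusted p = 1.04e-08), Col4a1 (0.0104) and Col4a2 (0.0347) lower in C4. Pth1r, the parathyroid hormone receptor of parietal endoderm, was at 0.192 CPM in C4 ESC against 1.23 and 1.22 CPM in 5-3 ESC, and at 17.2 CPM in C4 XEN against 67.8 CPM in 5-3 XEN (edgeR adjusted p = 0.0869). Of 26 genes of the retinoic acid response, C4 was below in both states for 9 and above for 2, with 5 at an unadjusted edgeR p below 0.05. The shares over all genes, for each of these lists, were 25.3% below and 15.7% above. Stra6, the cell surface receptor for the retinol carrier, was at 0.576 CPM against 1.06 and 0.937 CPM in ES cells and at 78.0 against 106 CPM in XEN cells. Of 32 HOX genes tested, C4 was below in both states for 9 (28.1%, against 25.3% of all genes), which is near the background. In the neuroectoderm list C4 was above in both states for 7 of 16 genes and below for 1. Pax6, a regulator of neural progenitors, was at 4.13 CPM against 3.13 and 3.43 CPM in ES cells and at 11.5 against 5.81 CPM in XEN cells. None of the genes of these lists was called by edgeR, DESeq2 further called Wt1 of the retinoic acid list lower and Nefm of the neuroectoderm list higher, and the genes named here were chosen after their values were seen.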
